A study of Homo sapiens with 4 samples.

Results

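DDIT4 and SGK1, genes tied to the growth kinase mTOR from opposite sides, were followed in SH-SY5Y cells treated with origamicin. They were chosen because they moved in opposite directions in this same comparison, so their own changes are described here and not tested. Members were the probe sets annotated to DDIT4 or SGK1. Each gene had 1 such probe set, giving 2 genes of 14884 with a named probe set and of 11883 bright enough to be tested. RNA was read on 4 Affymetrix Human Gene 2.0 ST arrays. SH-SY5Y is an established human neuroblastoma line of sympathetic lineage, a single tumour line in culture with no other cell type added. In the treated group, 2 cultures received origamicin at 30 µM for 24 h, a compound that the submitters call a PDI inhibitor. PDI (protein disulfide isomerase) forms disulfide bonds in the endoplasmic reticulum. In the mock group, 2 cultures received only methanol, the solvent, for the same 24 h. The labels give biological replicates but no separate passages or days, so the p-values rest on a spread between samples that may be technical.

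The mTOR kinase works in a pair of protein complexes. mTORC1 drives protein synthesis and growth when amino acids and growth factors are present, and mTORC2 phosphorylates AKT and SGK kinases. DDIT4, also called REDD1, is a small stress-induced protein that lowers mTORC1 activity through the TSC1-TSC2 complex. Its transcription is known to respond to hypoxia factors, glucocorticoids, p53 and ATF4. SGK1 is a serine/threonine kinase related to AKT, activated by mTORC2 and PDPK1. Its transcript is known to respond to serum, glucocorticoids and osmotic stress, and the kinase acts on the ubiquitin ligase NEDD4L, the FOXO factors and NDRG1.

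The sequences just before the RefSeq transcription starts of both genes are shown because the arrays read their transcripts, and because the regulators named above can act at promoters. DDIT4 (gene identifier 54541) lies on chromosome 10 and has 1 start in the table, with the 250 bases before it at chr10:72273674-72273923 on the plus strand (GRCh38.p14). SGK1 (gene identifier 6446) lies on chromosome 6 and has 3 starts, numbered here in the direction of transcription. The bases before them are chr6:134318113-134318362, chr6:134177862-134178111 and chr6:134174867-134175116, all on the minus strand. The single SGK1 probe set does not tell which start its transcripts used. Capitals mark a match to any of 9 short motifs on either strand.
DDIT4: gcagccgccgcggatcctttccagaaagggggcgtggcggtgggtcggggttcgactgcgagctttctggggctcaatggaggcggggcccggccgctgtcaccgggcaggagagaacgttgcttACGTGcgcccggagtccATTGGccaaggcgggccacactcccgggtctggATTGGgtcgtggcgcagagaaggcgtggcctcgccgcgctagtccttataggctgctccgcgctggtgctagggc
SGK1 start 1: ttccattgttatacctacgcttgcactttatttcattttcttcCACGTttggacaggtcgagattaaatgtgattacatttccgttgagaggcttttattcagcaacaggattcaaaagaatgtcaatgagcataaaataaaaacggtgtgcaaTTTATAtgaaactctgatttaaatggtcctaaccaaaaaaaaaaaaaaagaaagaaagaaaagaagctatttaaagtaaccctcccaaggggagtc
SGK1 start 2: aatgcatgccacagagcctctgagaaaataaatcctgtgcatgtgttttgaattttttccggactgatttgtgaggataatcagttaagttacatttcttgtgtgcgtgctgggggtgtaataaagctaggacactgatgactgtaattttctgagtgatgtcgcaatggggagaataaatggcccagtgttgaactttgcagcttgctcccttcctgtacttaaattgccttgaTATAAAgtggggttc
SGK1 start 3: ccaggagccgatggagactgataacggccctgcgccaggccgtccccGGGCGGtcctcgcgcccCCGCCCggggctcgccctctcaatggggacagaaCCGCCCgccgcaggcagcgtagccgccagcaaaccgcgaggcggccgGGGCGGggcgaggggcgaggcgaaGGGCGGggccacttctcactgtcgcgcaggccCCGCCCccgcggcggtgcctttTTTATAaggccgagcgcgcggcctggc

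The promoters differed in composition and in the letters they held. GC content was 68.8% before the DDIT4 start and 33.6%, 41.6% and 76.0% before the SGK1 starts, against a median of 58.0% over 35114 RefSeq promoters. The DDIT4 sequence held ACGTG, a form of the core of hypoxia response elements, with its first base at position -125 counted from the start. Other forms of that core, such as GCGTG, were not searched. The DDIT4 sequence also held CCAAT on the minus strand at positions -108 and -75. ACGTG occurs in 18.5% and CCAAT in 32% of all promoters of the same length. Upstream of SGK1, start 1 held ACGTG on the minus strand at position -207 and TATAAA, the TATA box, on the minus strand at position -96. Start 2 held TATAAA at position -15. Start 3 held GGGCGG, the GC box, 6 times, and TATAAA on the minus strand at position -27. GGGCGG occurs in 42.6% and TATAAA in 10.7% of promoters. The other motifs had no match in these windows. They were AGAACA (a part of the glucocorticoid receptor site, in 12.4% of promoters), CACGTG (the E-box, which contains ACGTG, 6.35%), TGATGNAA (an ATF4 element, 3.14%), TGACGTCA (the cyclic AMP element, 1.65%) and GTAAACA (a FOXO site, 2.98%). A match describes letters, not a bound site.

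DDIT4 was lower after origamicin. Its log2 expression was 7.88 and 7.75 on the mock arrays and 6.65 and 6.48 on the origamicin arrays. Both treated arrays lay below both mock arrays, and the gap of 1.10 between the groups compares with a range of 0.13 within mock and 0.17 within origamicin. The group means were 7.82 ± 0.09 (SD, n = 2) and 6.57 ± 0.12 (SD, n = 2). The log2 change was -1.25 with a moderated standard error (SE) of 0.09 and a 95% interval of -1.50 to -0.997, or 2.38-fold lower. The 4 comparisons of a treated with a mock array ran from -1.40 to -1.10. Among the 11883 genes tested, only 2 stood lower in change. In RNA from whole cultures, fewer cells with a transcript and less transcript per cell cannot be told apart.

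SGK1 was higher. Its values were 4.20 and 4.25 in mock and 5.13 and 5.10 after origamicin, so that the groups did not overlap. The gap between groups was 0.84, against 0.05 within mock and 0.03 within origamicin. The means were 4.22 ± 0.04 (SD, n = 2) and 5.11 ± 0.02 (SD, n = 2), a log2 change of 0.89 ± 0.07 SE (95% interval 0.72 to 1.06), or 1.85-fold higher. The 4 array pairs ran from 0.84 to 0.93, and its change ranked 16 from the top of the genes tested. SGK1 was dim in mock cells, 0.40 above the level of 3.82 below which genes were left out, whereas DDIT4 stood 3.99 above it. Array background can raise so dim a level, and its part in the SGK1 fold was not tested. When the variance was allowed to follow intensity, its SE was 0.13 in place of 0.07, while that of DDIT4 stayed at 0.09.

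**Figure D1:**
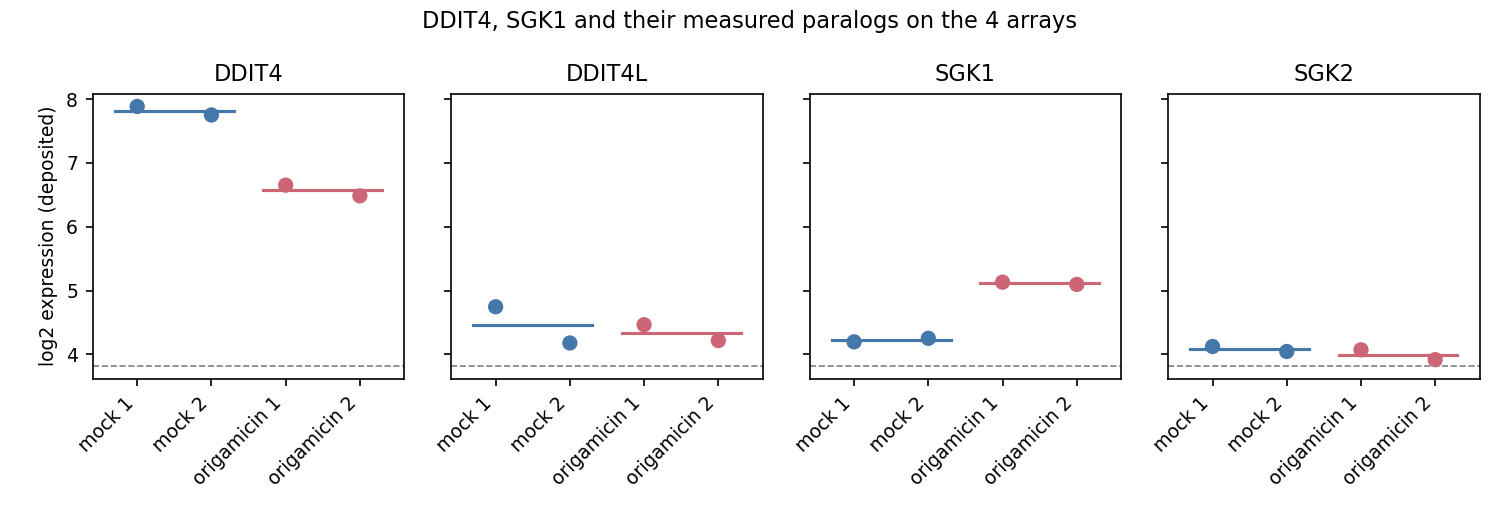
Deposited log2 expression (vertical axis) of DDIT4, DDIT4L, SGK1 and SGK2 on each of the 4 arrays (horizontal axis), mock in blue and origamicin in red. Horizontal bars are group means of 2 arrays and the dashed line is the filter level of 3.82. DDIT4 moved from 7.82 to 6.57 and SGK1 from 4.22 to 5.11, while the arrays of both groups overlapped for DDIT4L and SGK2.

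The paralogs showed smaller differences than DDIT4 and SGK1, which were chosen for theirs. DDIT4L, which like DDIT4 lowers mTORC1 activity, read 4.75 and 4.18 in mock and 4.46 and 4.22 after origamicin. Its groups overlapped, and its change of -0.12 ± 0.22 SE (adjusted p = 0.83, limma) was smaller than the spread between the mock arrays. SGK2, a kinase of the SGK family, read 4.12 and 4.04 in mock and 4.07 and 3.92 after origamicin, a change of -0.09 ± 0.08 (adjusted p = 0.66, limma). Both paralogs lay close to the filter level. SGK3 has no named probe set and was not analysed here.

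The size of both shifts can be read against the whole series. With limma, 0% of the 11883 genes reached the adjusted threshold of 0.05. An unadjusted p under 0.05 was found for 1950 genes, 7.99% of those tested being higher and 8.42% lower. With a variance that follows intensity, 511 genes passed an adjusted p of 0.05 (2.14% higher, 2.16% lower). Groups without overlap were seen for many genes, so this alone says little of DDIT4 and SGK1: 22.7% of genes had both origamicin arrays above and 25.8% below the mock arrays. Across genes, Pearson's r was 0.995 between the mock arrays, 0.994 between the origamicin arrays and 0.991 to 0.992 between groups. At most 32 genes had the same value on any pair of arrays, so none was deposited more than once.

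Of the markers listed for noradrenergic neuroblastoma, DBH (noradrenaline synthesis) was bright at 12.33 to 12.53 over the 4 arrays. The lineage factor HAND2 was bright as well, at 11.23 to 11.34. TH, the enzyme that starts catecholamine synthesis, was dim at 5.52 to 5.82. The mean of 14 noradrenergic markers was 9.56 and 9.61 in mock and 9.36 and 9.39 after origamicin. Of the 14, 12 were lower, where 6195 of all 11883 genes tested were. At an unadjusted p under 0.05 in limma, 6 were lower and 1 higher, against 8.42% and 7.99% of all genes. The granins CHGB (-0.76 ± 0.08 SE) and CHGA (-0.80 ± 0.09) and the catecholamine enzyme DDC (-0.59 ± 0.06) had the smallest p of these markers. HAND1 (-0.01 ± 0.07), HAND2 (0.04 ± 0.07), GATA3 (-0.02 ± 0.06) and TH (-0.01 ± 0.12) showed smaller differences. The mean of 11 mesenchymal markers was 6.71 and 6.69 in mock and 7.08 and 6.95 after origamicin. Of the 11, 10 were higher, where 5686 of all 11883 genes tested were. At that p, 6 were higher and 0 lower. FOSL1 (0.76 ± 0.07), an AP-1 subunit, the filament gene VIM (0.45 ± 0.07) and the basement membrane gene NID1 (0.43 ± 0.06) had the smallest p among them. Glial markers averaged 4.65 to 4.76 on all arrays, with FOXD3 at -0.18 ± 0.12, GFAP at 0.23 ± 0.16 and ERBB3 at 0.16 ± 0.12. The part of the noradrenergic and mesenchymal shifts in the changes of DDIT4 and SGK1 was not tested.

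Around DDIT4, the genes of the mTOR pathway itself showed smaller changes. Across 6 lists of mTOR subunits, the TSC complex, amino acid sensors, the PI3K arm, mTORC1 effectors and SGK1 partners, 67 of 106 genes were tested. Of these, 13 were higher (19.4%) and 4 lower (5.97%) at an unadjusted p under 0.05, against 7.99% and 8.42% of all genes tested, and none passed the adjusted threshold. Their median log2 change was 0.02, against -0.01 over all genes tested. The largest change was 0.47, for RRAGC, smaller than those of DDIT4 and SGK1, which were chosen for their changes. The 13 became 8 without mock replicate 2. The 4 became 1 without mock replicate 1, 1 without origamicin replicate 2 and 2 without origamicin replicate 1.

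DDIT4 acts through the TSC complex, which holds the small GTPase RHEB inactive and thereby mTORC1. TSC1 read 8.32 and 8.35 in mock and 8.60 and 8.55 after origamicin, 0.23 ± 0.06 SE higher. TSC2, its catalytic partner, did not separate the groups (-0.01 ± 0.07). RHEB stood at 0.01 ± 0.06, whereas its relative RHEBL1 was 0.28 ± 0.06 higher. TSC1 and RHEBL1 were the 2 of 5 genes of this list at an unadjusted p under 0.05, both higher (7.99% of all genes). The list's median was 0.01. Without mock replicate 1 the count was 0, and without mock replicate 2 or origamicin replicate 1 it was 1. The kinase MTOR itself stood at 0.03 ± 0.06, TTI1, which helps assemble its complexes, at -0.06 ± 0.06, and MAPKAP1, an mTORC2 subunit, at 0.07 ± 0.07. DEPTOR, an inhibitory subunit, was variable and stood at 0.25 ± 0.19. None of the 6 mTOR complex genes tested reached an unadjusted p of 0.05 in limma, and their median was 0.0032. As 7.99% of all genes were higher and 8.42% lower at that p, this says little for 6 genes.

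Amino acid sensors, which place mTORC1 on the lysosome beside RHEB, went both ways. Of 23 tested, 6 were higher and 3 lower at an unadjusted p under 0.05 (all genes 7.99% and 8.42%), with a median of -0.01. RRAGC, a Rag GTPase that recruits mTORC1, read 6.94 and 7.09 in mock and 7.50 and 7.47 after origamicin (0.47 ± 0.08 SE). FLCN, which activates that GTPase, was 0.35 ± 0.07 higher, and its partners FNIP1 and FNIP2 were 0.28 ± 0.07 and 0.34 ± 0.09 higher. RRAGD, another Rag GTPase, had overlapping groups (0.03 ± 0.10). SESN2, a leucine sensor that restrains mTORC1, was 0.37 ± 0.08 higher, the opposite side to DDIT4, another stress-induced inhibitor. Its relatives SESN1 (0.17 ± 0.07) and SESN3 (-0.05 ± 0.08) showed smaller differences. KICS2 (-0.45 ± 0.09) and KPTN (-0.26 ± 0.06), subunits of the KICSTOR complex that anchors the restraining GATOR1 complex, were lower. With an intensity trend in limma, RRAGC, SESN2 and FNIP1 passed (adjusted p = 0.0235, 0.0432 and 0.0439), as did SEH1L, a nuclear pore and GATOR2 subunit, on the lower side (adjusted p = 0.038). The 3 lower genes became 1 without mock replicate 1, mock replicate 2 or origamicin replicate 2.

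Upstream of SGK1, the kinase PDPK1, which phosphorylates its activation loop, was higher. It read 9.40 and 9.44 in mock and 9.78 and 9.82 after origamicin, 0.38 ± 0.06 SE. IRS2, the adaptor that links insulin receptors to PI3K, was 0.39 ± 0.07 higher. PHLPP2, a phosphatase that acts on AKT, was 0.28 ± 0.07 higher. Both PDPK1 and IRS2 passed when limma used an intensity trend (adjusted p = 0.011 and 0.018). AKT1 (-0.11 ± 0.10), AKT2 (-0.05 ± 0.07) and IRS1 (-0.04 ± 0.13) had overlapping groups. Over the 10 genes tested, 3 were higher and 0 lower at an unadjusted p under 0.05 (all genes 7.99% and 8.42%), with a median of 0.13 against -0.01 over all genes. Only these 10 of 21 have a named probe set, and the PI3K subunits were not analysed here.

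**Figure D2:**
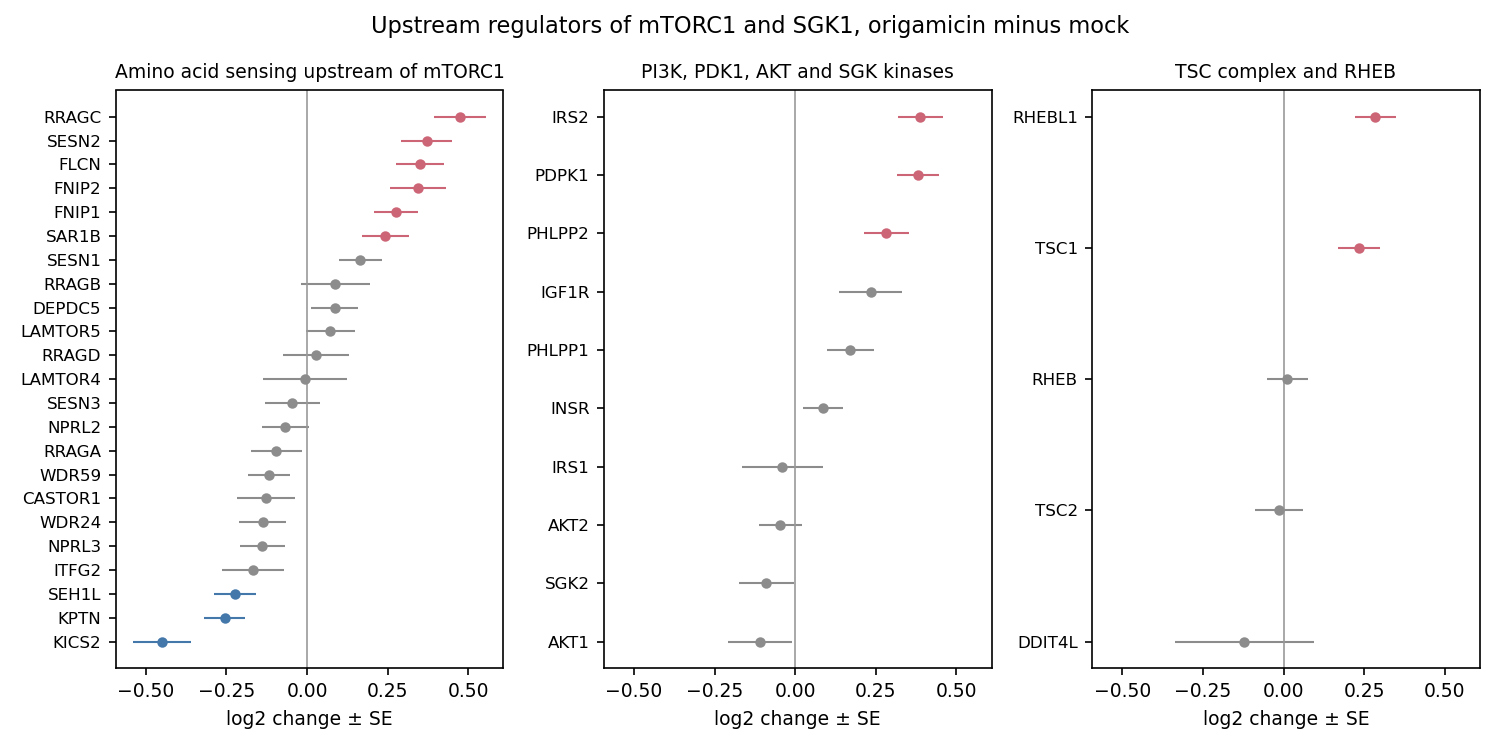
Log2 change ± SE (horizontal axis, origamicin minus mock) for tested genes (vertical axis) of the amino acid sensing, PI3K and TSC lists. Red and blue mark genes higher or lower at an unadjusted p under 0.05 and grey the others. The values run from -0.45 for KICS2 to 0.47 for RRAGC, inside the changes of DDIT4 and SGK1, which were chosen from this comparison.

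Genes downstream of mTORC1 went both ways. In the list of mTORC1 substrates and effectors, 2 of 15 were higher and 1 lower at an unadjusted p under 0.05 in limma. The shares over all genes were 7.99% and 8.42%, so with 15 genes these counts say little. The median was 0.03, or 0.01 without mock replicate 1 and 0.08 without mock replicate 2. The 2 higher genes were the transcription factors TFE3 and TFEB. mTORC1 keeps both out of the nucleus, and lysosomal genes are among their known targets. TFE3 stood at 0.47 ± 0.09 SE (adjusted p = 0.028 with an intensity trend) and TFEB at 0.45 ± 0.13 (adjusted p = 0.18 with it). EIF4E, the cap-binding factor of translation, was 0.25 ± 0.07 lower. The translation repressors EIF4EBP1 (-0.05 ± 0.07) and EIF4EBP2 (0.05 ± 0.07) and the autophagy kinase ULK1 (-0.01 ± 0.09) had overlapping groups. The 2 became 1 without mock replicate 2 or origamicin replicate 2. The 1 became 0 without mock replicate 1 or either origamicin array.

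Metabolic genes known to be transcribed under mTORC1 control were described next. Of 12 tested, 6 were lower (8.42% of all genes) and 1 higher (7.99% of all genes) at an unadjusted p under 0.05. The median was -0.16, against -0.01 over all genes. Hexokinase HK2 had the largest difference, with 8.37 and 8.31 in mock and 7.34 and 7.54 after origamicin (-0.90 ± 0.09 SE). LDHA (-0.45 ± 0.07) and PGK1 (-0.39 ± 0.07), glycolytic enzymes, and the desaturase SCD (-0.33 ± 0.07) were lower. The sterol factor SREBF1 stood at -0.36 ± 0.13, while transketolase TKT was 0.45 ± 0.08 higher. When limma used an intensity trend, HK2, LDHA, PGK1 and SCD passed on the lower side and TKT on the higher side (adjusted p 0.0031 to 0.035). Of the lower genes, HK2 is also on the hypoxia list and PSAT1 on the ATF4 list, both described below. The part of mTORC1 in these changes was not tested.

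Transcripts of proteins that SGK1 acts on differed by less than SGK1, which was chosen for its change. Of 8 partners tested, 0 were higher and 0 lower at an unadjusted p under 0.05 in limma, and none passed with an intensity trend. Over all genes the shares at that p were 7.99% and 8.42%, so with 8 genes a count of 0 says little. Their median was -0.01. GSK3B, a kinase (0.11 ± 0.06 SE), and the kinases WNK4 (-0.23 ± 0.14) and WNK1 (0.12 ± 0.07) had the smallest p. WNK4 had the largest difference, with groups that met at 4.07. FOXO1 (0.08 ± 0.07) and FOXO3 (0.01 ± 0.07), which SGK1 phosphorylates, and the substrate NDRG1 (-0.03 ± 0.08) stood closer to 0. These are transcript levels and do not measure phosphorylation. Among 13 tested FOXO targets, 2 were higher and 2 lower at an unadjusted p under 0.05 (all genes 7.99% and 8.42%). The median was 0.07, or 0.01 without mock replicate 1 and 0.04 without mock replicate 2. TXNIP, which restrains thioredoxin, was 0.60 ± 0.10 lower and catalase CAT 0.29 ± 0.10 lower. IRS2 was higher, as given above, and the mitochondrial kinase PINK1 was 0.22 ± 0.07 higher. Without mock replicate 2 or origamicin replicate 2 the higher count was 1, and without mock replicate 1 or origamicin replicate 1 the lower count was 1.

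DDIT4 and SGK1 are both known glucocorticoid-induced genes. They moved in opposite directions, and the other genes of the glucocorticoid list were mixed. The part of glucocorticoid signalling in the changes of DDIT4 and SGK1 was not tested. Of 12 tested, 1 was higher and 3 lower at an unadjusted p under 0.05 (all genes 7.99% and 8.42%). The median was 0.04, and turned to -0.01 without mock replicate 1 and -0.09 without mock replicate 2. KLF9, a transcription factor, was 0.42 ± 0.07 SE lower (adjusted p = 0.047 with an intensity trend). The metallothioneins MT1X (-0.30 ± 0.09) and MT2A (-0.27 ± 0.10) were lower, and the zinc finger factor ZBTB16 was 0.27 ± 0.10 higher. FKBP5, a chaperone of the receptor and a common readout of it, stood at 6.07 and 6.03 in mock and 6.06 and 6.06 after origamicin (0.01 ± 0.06). PER1, a clock gene, stood at -0.13 ± 0.08. The receptor NR3C1 was not analysed here. The 3 became 1 without mock replicate 2, and the 1 became 0 without mock replicate 2 or origamicin replicate 1.

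Hypoxia genes, whose factors are known to induce DDIT4, lay mostly on the same side as DDIT4. The part of these factors in the change of DDIT4 was not tested. Of 18 tested, 17 were lower, where 6195 of all 11883 genes were. An unadjusted p under 0.05 was found for 10 of the 17, against 8.42% of all genes being lower at that p. The median was -0.26, against -0.01 over all genes tested. EPAS1, which encodes HIF-2α, read 9.43 and 9.36 in mock and 8.72 and 8.70 after origamicin (-0.69 ± 0.07 SE). Its partner ARNT stood at 0.03 ± 0.07. HK2 is also on this list, and BNIP3, a mitophagy receptor, was 0.49 ± 0.06 lower. NDRG1, which is both a hypoxia target and an SGK1 substrate, had overlapping groups. With an intensity trend, 6 of the 18 passed on the lower side and 0 on the higher (all genes 2.16% and 2.14%).

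Targets of p53 and of ATF4, factors also known to induce DDIT4, were read in the same way. Their part in the change of DDIT4 was not tested. Of 12 tested p53 targets, 9 were higher and 0 lower at an unadjusted p under 0.05 (all genes 7.99% and 8.42%). The median was 0.42, against -0.01 over all genes and a change of -1.25 for DDIT4. GDF15, a stress-induced cytokine (1.59 ± 0.11 SE), SPATA18, a mitochondrial quality factor (0.65 ± 0.08), and the death effector BAX (0.46 ± 0.06) had the smallest p. Of 13 ATF4 and CHOP genes, 3 were higher and 3 lower at that p. The median was -0.07, or -0.04 without origamicin replicate 2. ATF4 itself read 7.94 and 7.94 in mock and 7.90 and 7.85 after origamicin (-0.07 ± 0.06). DDIT3, which encodes CHOP, was among the 3 higher, with 4.26 and 4.64 in mock and 4.90 and 5.55 after origamicin (0.77 ± 0.26, adjusted p = 0.27, limma). VLDLR, a lipoprotein receptor (-0.47 ± 0.07), and the secreted STC2 (-0.41 ± 0.08) were lower, while GDF15 and SESN2 are on this list as well.

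Serum-responsive genes, the class for which SGK1 was named, split. Of 19 tested, 6 were higher and 2 lower at an unadjusted p under 0.05 (all genes 7.99% and 8.42%). The median was 0.11, or 0.03 without origamicin replicate 1. EGR1, an immediate early factor, was 1.08 ± 0.10 SE higher, and the AP-1 subunit FOSL1 0.76 ± 0.07 higher, on the side of SGK1. MYC (-0.97 ± 0.08) and JUN (-0.58 ± 0.07) were lower, on the side of DDIT4. The 6 became 2 without mock replicate 1. Of the osmotic genes 2 of 8 were tested, the water channel AQP1 at -0.60 ± 0.21 and the chaperone HSPA4L at 0.06 ± 0.08. Over all 154 distinct pathway genes tested, 0 were lower than DDIT4 and 3 were higher than SGK1 in change. Since DDIT4 and SGK1 were chosen from this comparison, these counts say little of the pathway genes.

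**Figure D3:**
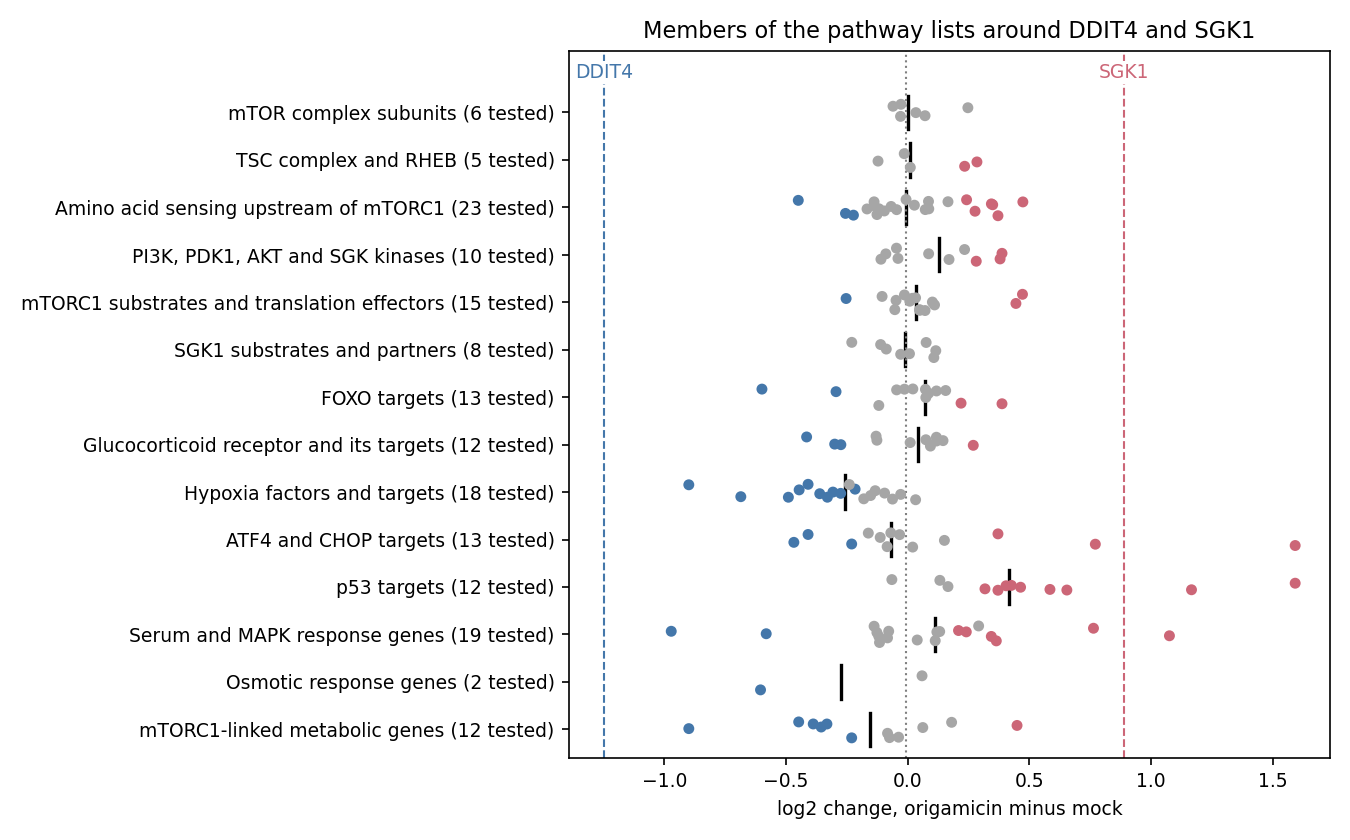
Log2 change (horizontal axis, origamicin minus mock) of each tested gene in 14 pathway lists (vertical axis). Red and blue points are higher or lower at an unadjusted p under 0.05, grey the others, and black bars are list medians. Dashed lines mark DDIT4 at -1.25 and SGK1 at 0.89, and the dotted line is the median over all genes tested. Hypoxia genes lie mostly left and p53 targets mostly right.

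The genes nearest in pattern were found by the root mean square difference of log2 values, each centred on its gene's mean over the 4 arrays. They were chosen from this comparison and are a description. Nearest to DDIT4 were INSM2, a zinc finger factor (difference 0.10), MIR3621 (0.15), the proneural factor NEUROG2 (0.18), the growth factor FGF7 (0.18) and MYC (0.19). INSM2 read 8.72 and 8.69 in mock and 7.71 and 7.58 after origamicin, close in shape to DDIT4. FGF7 has pseudogene copies, so its probe set may read more than 1 gene. The genes nearest to SGK1 had smaller differences. The measure also takes in the size of a change, and in their own directions DDIT4 ranked 3 and SGK1 16. Fewer genes changed as far as DDIT4, so these differences do not compare shape alone. MGP, an inhibitor of calcification (0.02), MIR4521 (0.04), TMEM229A (0.04), LAYN, a hyaluronan receptor (0.05), and the complement component C7 (0.05) changed by 0.83 to 0.97. MGP was dim in mock, as SGK1 was, at 3.87 and 3.96 before 4.86 and 4.79.

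**Figure D4:**
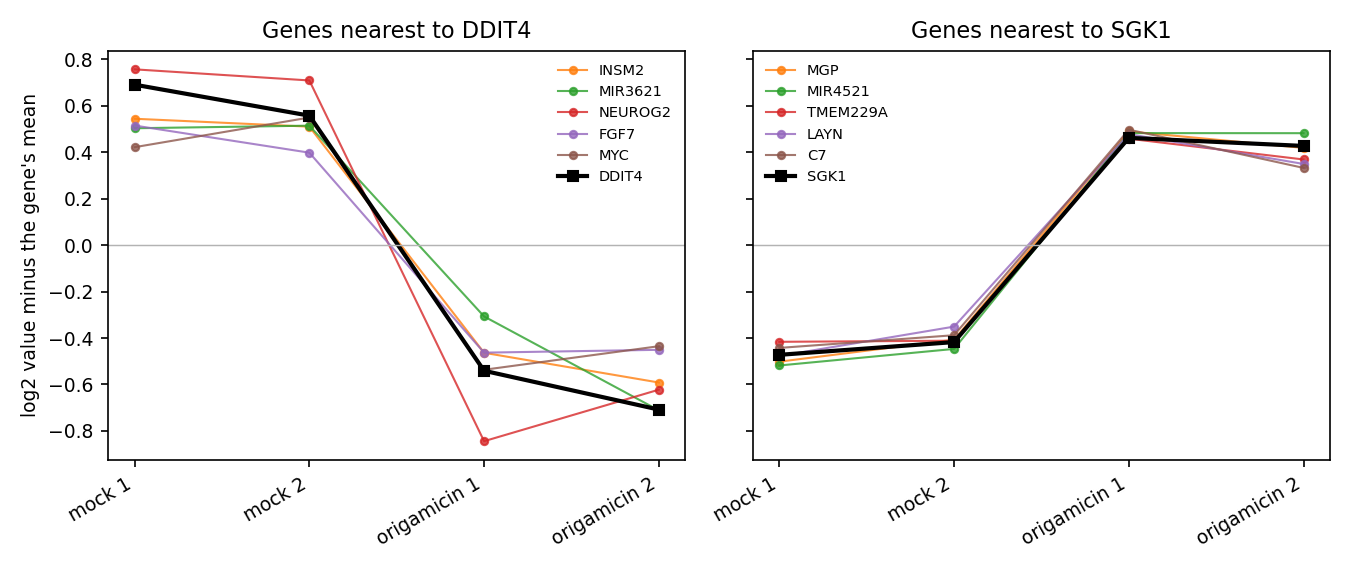
Log2 values minus each gene's mean (vertical axis) on the 4 arrays (horizontal axis) for DDIT4 and SGK1 (black squares) and the 5 genes nearest to each. The root mean square differences reach 0.055 for the genes around SGK1 and 0.192 for those around DDIT4.

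The genes beside DDIT4 and SGK1 on their chromosomes showed smaller changes. For each gene, the 5 nearest tested genes on either side were taken from RefSeq order. Beside DDIT4 the changes ran from -0.20 (DNAJC9-AS1) to 0.29 (NUDT13). At an unadjusted p under 0.05 in limma, 0 of 10 were higher and 1 lower, against 7.99% and 8.42% of all genes tested. The lower gene was ANAPC16, a subunit of the anaphase-promoting complex, at -0.18 ± 0.06 SE. The calcium channel gene MCU, on the other side, stood at -0.06 ± 0.06. Beside SGK1 the changes ran from -0.40 (TAAR5) to 0.49 (PDE7B), with 1 higher and 2 lower of 10 at that p. With so few genes, neither count is far from the shares over all genes. PDE7B, a cyclic AMP phosphodiesterase, was the higher, at 0.49 ± 0.07, while the measured genes between it and SGK1 stood between -0.19 and 0.18. HBS1L, the next measured gene, was 0.19 ± 0.06 lower. In both sets, none of the 10 genes changed as far as DDIT4 or SGK1. As DDIT4 and SGK1 were chosen for their changes, this follows largely from that choice.

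**Figure D5:**
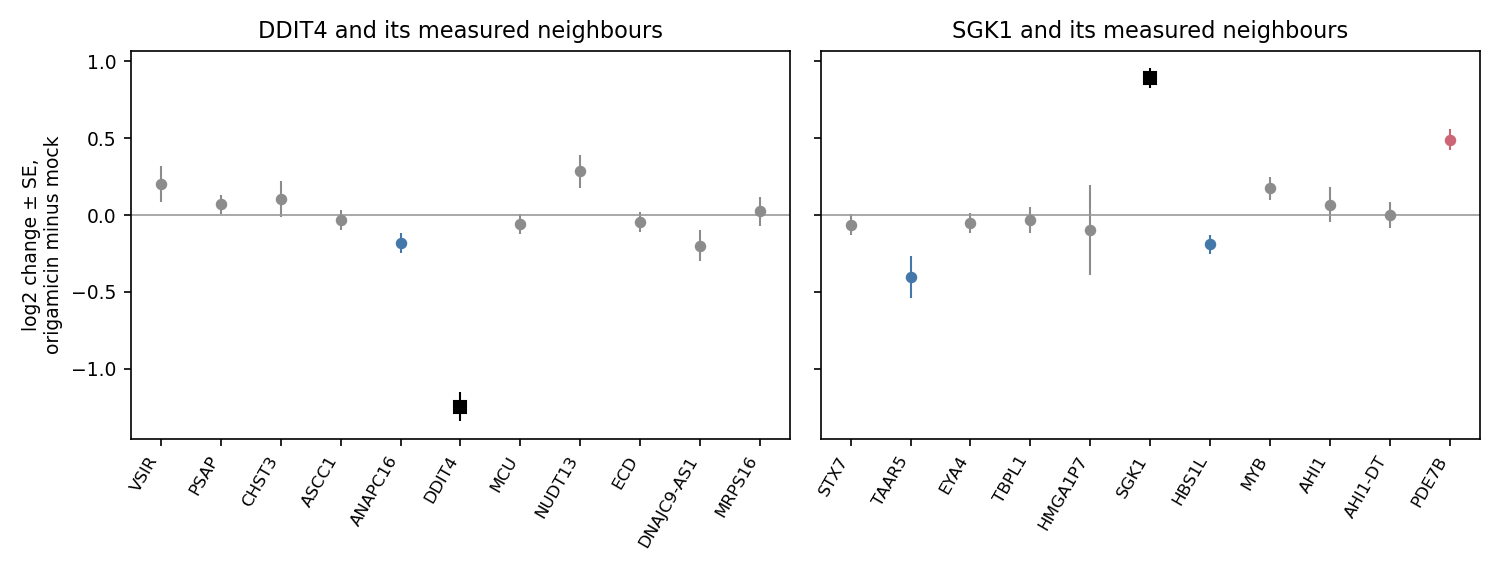
Log2 change ± SE (vertical axis, origamicin minus mock) of DDIT4 and SGK1 (black squares) and the 5 nearest tested genes on either side in chromosome order (horizontal axis, not to distance). Red and blue mark an unadjusted p under 0.05. The neighbours run from -0.40 to 0.49, while DDIT4 stands at -1.25 and SGK1 at 0.89.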

How the data were processed

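RNA from 4 SH-SY5Y cultures was read on Affymetrix Human Gene 2.0 ST arrays. The log2 values per probe set are the authors' deposited values. Per the submitters' processing notes, RMA and limma were used (no version stated). The build and annotation behind them were not given in the sources used here, and the values were not normalized again. Of 53617 probe sets, a platform annotation named 1 gene for 16098, and the other 37519 are unnamed here. Where a gene had several, the one of highest mean across the 4 arrays was taken. Genes below the 40th percentile of all probe set means (3.82) were left out, which removed 3001 of 14884.

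The comparison used limma 3.58.1 (R 4.3.3, lmFit and eBayes, origamicin minus mock, two-sided), and p-values were adjusted (Benjamini-Hochberg) over 11883 genes. The fit was tested on simulated data. The genes, lists and tests were chosen with earlier results of these data known. Named besides DDIT4, SGK1 and their paralogs were the 3 smallest p of each list, the 5 genes nearest in pattern, and further list members by their known role. Of 247 distinct pathway genes, 17 are on more than 1 list. Alternatives were a replicate block, 2 other filters, 2 normalizations, the mean of probe sets, 2 variance models and leaving out each array. Arrays have no counting depth, and their number limits the precision. Promoter sequences are from RefSeq (GRCh38.p14), of which 35114 were searched.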

Additional observations from a re-analysis of the deposited data

How the results depend on the processing

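The decrease of DDIT4 and the increase of SGK1 kept their direction in all the alternatives that could give a value. Leaving out each array moved DDIT4 between -1.33 and -1.17 and SGK1 between 0.86 and 0.92, and the other alternatives moved them from -1.27 to -1.24 and from 0.87 to 0.89. With the filter at the 60th percentile SGK1 was itself left out as dim, so that setting gave no value for it. The count of genes past the adjusted threshold, 0 in limma, was 92 with that filter and 511 with an intensity trend, and remained 0 in the other alternatives. The 1950 genes at an unadjusted p under 0.05 became 1261 to 1669 when an array was left out.

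With a replicate block the count past the adjusted threshold was 0 and that at an unadjusted p under 0.05 was 1718. Same-numbered arrays did not deviate together (r = -0.02 across genes), so the numbers were not taken to pair the arrays. DDIT4 was lower on replicate 2 than on replicate 1 in both groups, by -0.13 and -0.17, and its SE was 0.07 with the block.

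List medians near 0 had no stable sign. Over 17 lists and 12 alternatives, 13 of 204 medians changed sign, in 5 lists: mTOR subunits (-0.02 to 0.06 when an array was left out), the TSC complex (-0.01 to 0.16), amino acid sensing (-0.09 to 0.05), SGK1 partners (-0.02 to 0.02) and glucocorticoid targets (-0.09 to 0.04). The cause was not tested. The precision is limited by 2 arrays per group, and the part of array background in the dim values of SGK1 in mock, SGK2 and DDIT4L was not tested.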
